A study of Homo sapiens with 12 samples.

Results

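Of the 16389 genes in the count table, 10 are described here, which code for protein disulfide isomerases and for the oxidases of the endoplasmic reticulum (ER) that recharge them. They were chosen by name, and each of the 10 names was found: P4HB, PDIA3, PDIA4, PDIA5, PDIA6, TXNDC5, TXNDC11 and ERP44, which are isomerases or their thioredoxin-fold relatives, and the oxidases ERO1L and ERO1LB, now called ERO1A and ERO1B. Counts came from HepG2, an established human liver cancer cell line used at passage 9 and grown in DMEM with fetal serum and antibiotics in all groups, with 3 libraries for each of 4 groups. Cells of the low glucose group (LG) were kept for 48 h in medium with 5.5 mM glucose and those of the high glucose group (HG) in medium with 20 mM. The LGV and HGV groups had the same glucose levels for 48 h and then 1 mM valproic acid (VPA), an inhibitor of histone deacetylases, for a further 12 h. When the untreated cells were taken relative to those 12 h is not stated, so longer culture and VPA cannot be told apart in LGV against LG and HGV against HG. The labels also do not say whether replicates were separate cultures, and p-values then measure only the spread between these libraries, which may be technical.

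Disulfide bonds of secreted and membrane proteins are made in the ER lumen. Isomerases of the PDI family carry thioredoxin-like domains whose paired cysteines pass a disulfide to a client protein or rearrange a wrong pairing. ERO1 oxidases restore the oxidised form of these enzymes with molecular oxygen, which yields hydrogen peroxide. Hepatocytes export large amounts of disulfide-bonded plasma proteins, and many genes of this machinery are known targets of the unfolded protein response (UPR), the signalling that matches folding capacity to load.

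Between 29798442 and 45572694 reads per library were counted on the 16389 genes. Factors of edgeR's TMM method, which scales libraries to each other, ran from 0.879 to 1.09, and all levels below are CPM, the reads of a gene scaled to a common library total with these factors. The common biological coefficient of variation was 0.168 in LG, 0.115 in HG, 0.126 in LGV and 0.142 in HGV. Of the hepatocyte markers checked, 10 of 10 were in the table, and their summed level ran from 40082 to 61653 CPM over the 12 libraries. PTPRC, PECAM1, COL1A2 and KRT7, which mark leukocytes, endothelium, stellate cells and bile duct cells, were not listed in the table. Of the wider lists of markers, 1 of 5 for leukocytes (0.63 to 4.73 CPM summed), 3 of 4 for endothelium (2.49 to 5.35 CPM), 3 of 5 for stellate cells (43.7 to 78.0 CPM) and 1 of 3 for bile duct cells (SOX9, 216 to 353 CPM) were in the table.

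The first comparison asked how these genes differed between high and low glucose without VPA. No group controlled for the osmolarity of the added glucose, so glucose and osmolarity cannot be told apart. In HG, 7 of the 10 genes were lower than in LG and 0 were higher (edgeR quasi-likelihood F test, FDR of 0.05 or less over all genes tested). Among the 15452 genes tested, 24.7% were called in either direction, 12.7% lower and 12% higher. P4HB, PDIA3, PDIA4, PDIA6, TXNDC11, ERP44 and ERO1LB were the genes that fell, with log2 fold changes from -1.74 for ERO1LB to -0.71 for TXNDC11. PDIA5, ERO1L and TXNDC5 were not called. Over the 10 genes the median log2 fold change was -1.01, against 0.01 over all genes. For 7 of the 10, no HG library reached the level of any LG library, which was so in either direction for 41.2% of all genes and with HG lower for 21.8%. As a share of all counted reads, the 10 genes together took 0.673% ± 0.0659 in LG and 0.335% ± 0.0103 in HG (SD, n = 3). In such bulk RNA of a cell line, fewer cells with these transcripts and less of them per cell cannot be told apart. SOX9 ran from 216 to 270 CPM in LG and from 328 to 353 CPM in HG, and CD14 from 1.20 to 2.50 CPM and from 3.87 to 4.73 CPM. Among stellate cell markers, means in LG and HG were 49.2 and 23.7 CPM for PDGFRB, 18.7 and 37.2 CPM for ACTA2 and 0.226 and 0.339 CPM for COL1A1. The part of these markers in the results was not tested.

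**Figure D1:**
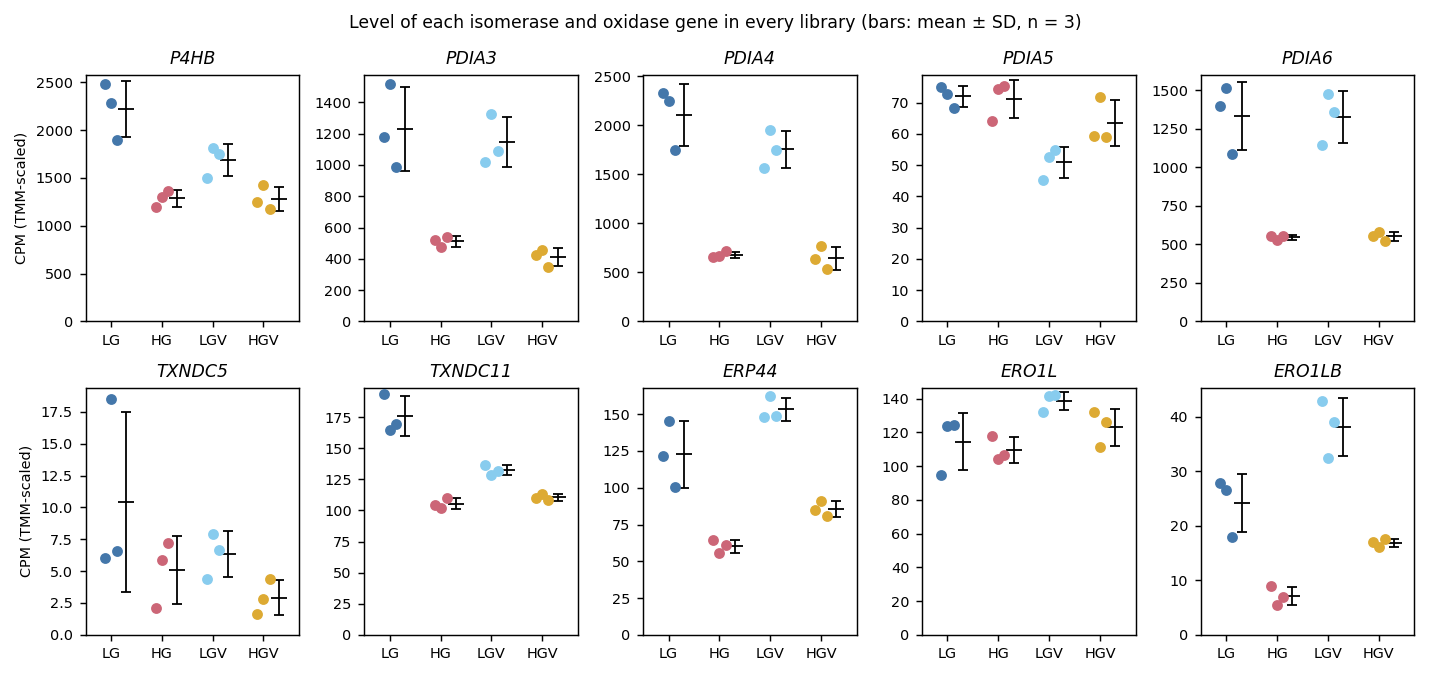
Level of each of the 10 genes in every library, in TMM-scaled CPM on linear axes that start at 0, with points for libraries of LG, HG, LGV and HGV in replicate order and bars for the mean and SD (n = 3). The PDIA4 points of HG and HGV sit between 532 and 766 CPM, below every LG and LGV point (1569 to 2329 CPM), and the 3 LG points of TXNDC5 lie as far apart as 6.06 and 18.5 CPM.

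The abundant isomerases fell together. PDIA4 (also ERp72, ENSG00000155660, chr7:148700154-148725754, minus strand, GRCh37), which carries extra thioredoxin-like domains, stood at 2329, 2252 and 1749 CPM in LG and at 662, 668 and 717 CPM in HG. The groups were well apart, and the fold change was -1.61 on the log2 scale (SE 0.13, FDR 1.63e-07). PDIA6 (also P5, ENSG00000143870, chr2:10923517-10978103, minus strand), which binds client proteins together with the chaperone BiP, had 1395, 1511 and 1088 CPM in LG and 554, 527 and 557 CPM in HG. Its log2 fold change was -1.26 (SE 0.13, FDR 2.47e-06), and every HG library was below every LG library. Of the exon bases of PDIA6, 25.2% overlap ATP6V1C2 on the opposite strand, a gene with at most 190 reads in any library.

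PDIA3 (also ERp57, ENSG00000167004, chr15:44038592-44065477, plus strand) is the isomerase that works on glycoproteins held by calnexin and calreticulin. Its levels were 1181, 1519 and 989 CPM in LG and 523, 474 and 543 CPM in HG, with no overlap. The log2 fold change was -1.24 (SE 0.14, FDR 8.56e-06). Its pseudogene PDIA3P1, which could share reads with it, was listed at a mean of 17.2 CPM in LG and 9.19 CPM in HG. P4HB (ENSG00000185624, chr17:79801035-79818732, minus strand), the founding member of the family, also serves as a subunit of collagen prolyl 4-hydroxylase and of the microsomal triglyceride transfer protein. It had 2478, 2279 and 1899 CPM in LG and 1192, 1298 and 1365 CPM in HG. This fall was smaller, -0.76 on the log2 scale (SE 0.13, FDR 0.000355), again without overlap. LG replicate 3 held the lowest LG level for 7 of the 10 genes.

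The relatives of lower level split. ERP44 (ENSG00000023318, chr9:102741467-102861334, minus strand), which retains ERO1 enzymes and unassembled clients in the early secretory pathway, had 122, 146 and 101 CPM in LG and 64.2, 55.4 and 61.3 CPM in HG. It fell by 1.0 on the log2 scale (SE 0.14, FDR 5.28e-05), and the groups did not overlap. TXNDC11 (ENSG00000153066, chr16:11772939-11836713, minus strand), a membrane-anchored relative known as a partner of EDEM proteins and of the dual oxidases, went from 194, 164 and 169 CPM in LG to 105, 102 and 110 CPM in HG. The log2 fold change was -0.71 (SE 0.12, FDR 0.000315).

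PDIA5 (ENSG00000065485, chr3:122785872-122944074, plus strand), an isomerase that acts on disulfides of the UPR sensor ATF6, showed 75.0, 72.8 and 68.3 CPM in LG and 64.2, 74.3 and 75.3 CPM in HG. The groups overlapped, and the 95% interval of the log2 fold change ran from -0.25 to 0.27 (FDR 0.968), which leaves out changes of the size seen for the other PDIA genes. Of its exon bases, 12.1% lie in SEC22A on the same strand, which had between 128 and 306 reads. Within a library, reads of PDIA4 for each read of PDIA5 were 31.1, 30.9 and 25.6 in LG and 10.3, 9.0 and 9.52 in HG, a ratio that no scaling between libraries affects. It was 3.03-fold lower in HG (exact permutation p = 0.1, the smallest that 3 libraries against 3 can give, two-sided, 0.133 after Benjamini-Hochberg adjustment). The ratio was picked with the values of both genes known, so its p-value is no separate evidence.

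TXNDC5 (also ERp46, ENSG00000239264, chr6:7881750-7911021, minus strand), which introduces disulfides into clients at speed, was sparse, with 53 to 743 reads per library. Levels were 6.06, 18.5 and 6.59 CPM in LG and 2.09, 5.89 and 7.22 CPM in HG. LG replicate 2 stood far above the others and the remaining libraries of both groups overlapped. The log2 fold change was -1.01 (95% interval -1.81 to -0.22), with an FDR of 0.0577, and over 15 alternative settings it ranged from -1.33 to -0.27. Without LG replicate 2 the FDR was 0.606. It passed in 5 of the 15 settings, among them without LG replicate 3 (0.0116), HG replicate 2 (0.0252) or HG replicate 3 (0.0417) and by the likelihood ratio test (0.0363). Of its exon bases, 61.0% are shared with the read-through gene BLOC1S5-TXNDC5 on the same strand, which was not in the count table, so how its reads were assigned was not tested.

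Of the oxidases, which catalyse the same reaction, ERO1LB passed the test in HG and ERO1L did not. ERO1LB (ENSG00000086619, chr1:236377981-236445319, minus strand), the form best known from the pancreas and from the UPR, had 27.8, 26.6 and 18.0 CPM in LG and 8.88, 5.53 and 7.0 CPM in HG. Its log2 fold change of -1.74 (SE 0.20, FDR 5.82e-06) was the lowest of the 10 genes, and the groups did not overlap. ERO1L (ENSG00000197930, chr14:53106633-53162618, minus strand), the widely expressed form that is also known to respond to hypoxia, had 94.98, 124 and 125 CPM in LG and 118, 104 and 106 CPM in HG. These groups overlapped, and the log2 fold change was -0.04 with an interval from -0.32 to 0.23 (FDR 0.832). Per kb of merged exon, ERO1L reads exceeded ERO1LB reads 6.96, 9.48 and 14.1 times in the LG libraries and 27.1, 38.3 and 30.9 times in the HG libraries. The size of the ratio depends on the length used. Its means in LG and HG were 10.2 and 32.1 by merged exon, and 7.60 and 24.0 by the longest annotated transcript. The ratio by merged exon was 3.26-fold higher in HG, and 3 libraries against 3 allow no smaller value than the p of 0.1 it gave (exact permutation test, two-sided, 0.133 after Benjamini-Hochberg adjustment over 12 such tests of 3 ratios that were picked with the values known).

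**Figure D2:**
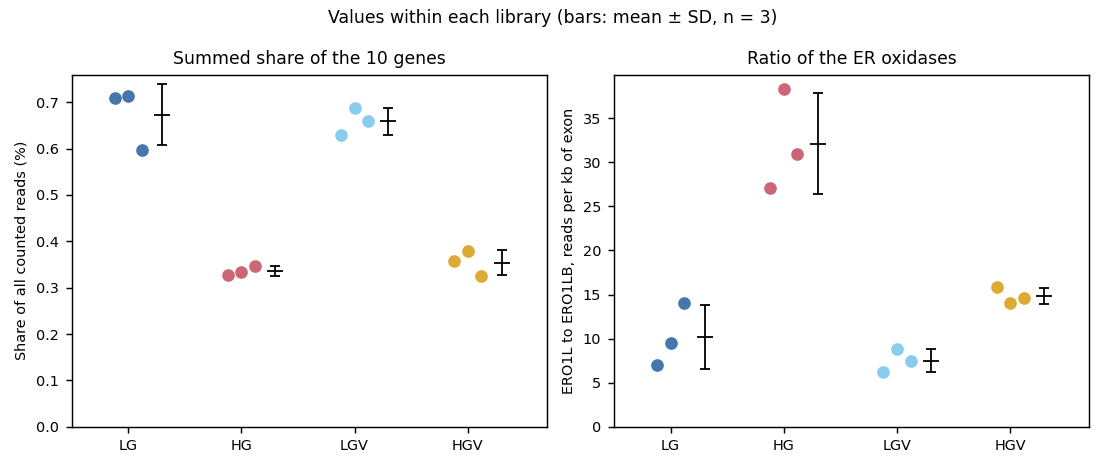
Left, share of all counted reads (%) taken by the 10 genes in each library, and right, reads per kb of merged exon of ERO1L divided by those of ERO1LB in each library, with points for libraries and bars for the mean and SD (n = 3). The share was 0.326 to 0.347% in HG and 0.597 to 0.713% in LG, and the oxidase ratio of the HG libraries (27.1 to 38.3) lies above that of all other groups.

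The start sites of PDIA6 and ERO1LB are shown because they hold the matches described here, and that of ERO1L as the other oxidase. RefSeq promoter windows, from 250 bases before to 50 bases after a start site, were found for 9 of the 10 genes (12 windows, GRCh38.p14). The windows were looked for in GRCh37 on the chromosome of their gene only, and each matched a single place there. They were searched on both strands for the ER stress response element (ERSE), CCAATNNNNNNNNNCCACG, which is known to bind ATF6 with NF-Y. ERSE was present in 2 of the 12 windows, the second window of PDIA6 and that of ERO1LB, and in 0.0769% of 35116 windows of all genes. The 250 bases before each start site follow, 5′ to 3′ in the sense of the gene, with the match in capitals. They lie on the minus strand of GRCh37 at chr2:10952912-10953161 (PDIA6), chr1:236445259-236445508 (ERO1LB) and chr14:53162277-53162526 (ERO1L).
PDIA6: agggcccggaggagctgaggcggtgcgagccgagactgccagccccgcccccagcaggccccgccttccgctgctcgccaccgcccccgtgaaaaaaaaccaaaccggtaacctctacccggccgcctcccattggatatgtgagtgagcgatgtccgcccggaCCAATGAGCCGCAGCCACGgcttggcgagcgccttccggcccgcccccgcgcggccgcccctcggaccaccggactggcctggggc
ERO1LB: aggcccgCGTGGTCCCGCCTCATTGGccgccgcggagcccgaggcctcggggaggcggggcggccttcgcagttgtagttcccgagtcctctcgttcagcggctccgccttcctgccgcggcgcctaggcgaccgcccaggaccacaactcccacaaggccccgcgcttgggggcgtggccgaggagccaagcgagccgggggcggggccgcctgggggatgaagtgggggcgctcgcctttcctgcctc
ERO1L: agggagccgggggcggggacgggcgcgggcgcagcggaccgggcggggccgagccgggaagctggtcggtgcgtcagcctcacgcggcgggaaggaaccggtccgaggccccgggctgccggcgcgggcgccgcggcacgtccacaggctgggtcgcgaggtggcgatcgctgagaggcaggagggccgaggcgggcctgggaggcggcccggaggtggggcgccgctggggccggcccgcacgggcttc
The PDIA6 match begins 86 bases before the start site in the forward sense, and the ERO1LB match begins 243 bases before it and reads on the opposite strand. ERO1L has none, and neither do the windows of P4HB, PDIA4, TXNDC11 and ERP44, which also fell in HG, nor those of PDIA5 and TXNDC5. PDIA3, which fell in HG too, is the gene without a window and was not searched. The shorter ERSE-II, ATTGG and CCACG with 1 base between them, was in 0 of the 12 windows and in 0.0541% of all windows. CCACG, which is part of every ERSE, was in 7 of the 12 windows against 38.1% of all, and CCAAT was in 7 against 34.6%. ACGTGG, a core of XBP1 and ATF6 sites, was in 4 against 9.72%, and ACGTG, which it contains and which is also a core of hypoxia response elements, in 7 against 21.4%. GCGTG, the other hypoxia core, was in 8 of 12 against 36.5%, and TGATGNAA, a core of ATF4 and CHOP sites, in 0 against 3.62%. These are matches of letters only, and binding was not measured. The share of G and C in the 12 windows ran from 48.7 to 81.0%. It was not compared with that of all windows, so its part in these counts was not tested.

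With VPA present in both arms, the glucose comparison was made on 6 other libraries. In HGV against LGV, 7 of the 10 genes were lower and 0 higher, while 40.7% of 16208 genes were called in either direction, 19.5% lower and 21.2% higher. Groups did not overlap for 10 of the 10 genes, against 51.4% of all genes. The median log2 fold change was -0.99, against 0.01 over all genes. PDIA3 fell from 1022, 1325 and 1086 CPM in LGV to 424, 458 and 346 CPM in HGV (log2 fold change -1.50, FDR 1.23e-06). PDIA4 fell from 1569, 1951 and 1746 CPM to 634, 766 and 532 CPM (-1.47, FDR 2.70e-06), and PDIA6 from 1146, 1473 and 1357 CPM to 557, 579 and 520 CPM (-1.28, FDR 3.32e-06). ERO1LB, from 43.0, 32.5 and 39.0 CPM to 16.96, 16.0 and 17.5 CPM, changed by -1.20 (FDR 3.32e-06), and ERP44 by -0.86 (FDR 2.59e-05). None of these groups came near each other. The summed hepatocyte markers were at 40082 to 41009 CPM in LGV and 47022 to 61653 CPM in HGV. SOX9 was at 221 to 244 and 276 to 332 CPM and CD14 at 0.63 to 1.41 and 2.59 to 3.34 CPM. Means in LGV and HGV were 35.3 and 28.4 CPM for PDGFRB, 10.9 and 21.9 CPM for ACTA2 and 1.09 and 1.97 CPM for COL1A1. The part of these markers in the results was not tested.

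TXNDC5 passed the test in this pair of groups. It had 4.38, 7.92 and 6.65 CPM in LGV and 1.63, 2.78 and 4.35 CPM in HGV, so that the highest HGV library lay just under the lowest LGV library (-1.13, 95% interval -1.72 to -0.54, FDR 0.00386). P4HB was lower by a small margin, with 1501, 1816 and 1748 CPM in LGV and 1246, 1422 and 1179 CPM in HGV. Its log2 fold change was -0.42 (FDR 0.0284), and the call was lost in 5 of 15 alternative settings, with FDR values up to 0.121 without LGV replicate 3 and 0.119 without HGV replicate 3. Leaving out HGV replicate 1 (0.0903) or LGV replicate 2 (0.0962), or scaling by upper quartiles (0.0676), also lost it.

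TXNDC11, PDIA5 and ERO1L did not pass in HGV against LGV. TXNDC11 had 137, 128 and 132 CPM in LGV and 110, 114 and 108 CPM in HGV, a difference of -0.28 (95% interval -0.51 to -0.04, FDR 0.0571). It passed in 3 of 15 alternatives, without HGV replicate 2 (0.0423), by the likelihood ratio test (0.0485) and by the Wald test (0.0231). PDIA5 was the single gene of the 10 with a positive value, 0.30 (interval 0.04 to 0.56, FDR 0.0641), and its groups, 45.2, 52.7 and 54.8 CPM against 59.4, 71.9 and 59.1 CPM, did not overlap. PDIA5 passed in 4 of 15 alternatives, among them library size (0.0151) and upper quartile scaling (0.0161) and the fit of all 12 libraries (0.0379). ERO1L had an interval from -0.44 to 0.06 (FDR 0.212). The oxidase ratio per kb was 6.26, 8.85 and 7.41 in LGV and 15.8, 14.1 and 14.6 in HGV, 2.00-fold higher in HGV (exact permutation p = 0.1, the smallest possible, adjusted 0.133).

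**Figure D3:**
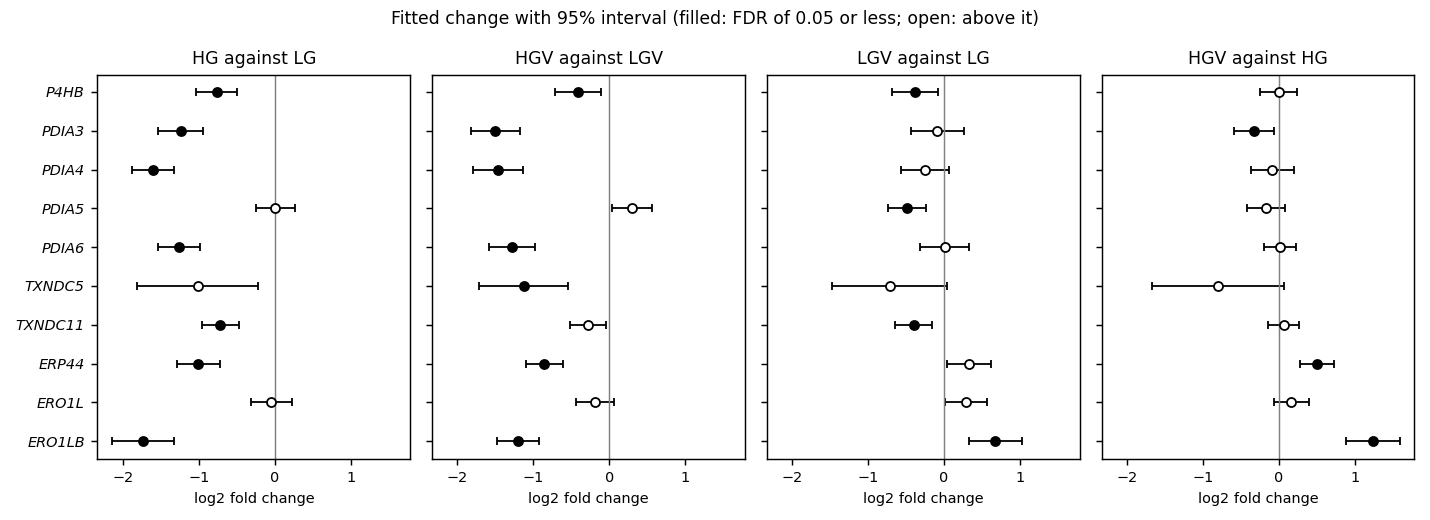
Log2 fold change of each gene (points) with its 95% interval (bars) in the 4 comparisons, filled where the FDR was 0.05 or less. In both glucose comparisons PDIA3, PDIA4, PDIA6, ERP44 and ERO1LB lie at -0.86 or below, while in both VPA comparisons ERO1LB lies to the right of 0 (0.68 and 1.24).

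The next question was what VPA changed at each glucose level. At low glucose (LGV against LG), 3 of the 10 genes were lower and 1 was higher, with 41.6% of 15944 genes called in either direction, 19.9% lower and 21.7% higher. The 10 genes thus had about the same share of calls as all genes, and their median log2 fold change was -0.17 (all genes -0.01). Groups did not overlap for 6 of the 10, against 50.5% of all genes. ERO1LB rose from 27.8, 26.6 and 18.0 CPM to 43.0, 32.5 and 39.0 CPM (0.68, SE 0.16, FDR 0.00411), with every LGV library above every LG library. The summed hepatocyte markers were at 40082 to 41009 CPM in LGV and 52075 to 58768 CPM in LG, and their part in these results was not tested. PDIA5 fell from 75.0, 72.8 and 68.3 CPM to 45.2, 52.7 and 54.8 CPM (-0.49, SE 0.12, FDR 0.00353).

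Both of those calls held in 15 of 15 alternative settings. TXNDC11 fell from 194, 164 and 169 CPM to 137, 128 and 132 CPM (-0.40, FDR 0.0118), a call that was lost without LG replicate 1 (FDR 0.0520), without LGV replicate 3 (0.0644) and with scaling by library size alone (0.0993). P4HB was lower by -0.38 (FDR 0.0432), and this call was lost in 6 of 15 alternatives, with an FDR of 0.184 without LG replicate 1, 0.0938 without LG replicate 2, 0.145 without LGV replicate 1, 0.109 without LGV replicate 3, 0.0737 with upper quartile scaling and 0.0973 with library size alone. ERP44 (0.33, interval 0.04 to 0.62, FDR 0.0611) and ERO1L (0.28, interval 0.01 to 0.56, FDR 0.0918) lay above 0 without passing. ERP44 was called in 7 of 15 alternatives, among them without LG replicate 2 (FDR 0.00882), by library size (0.00394) and by upper quartiles (0.0199), and ERO1L in 3, without LG replicate 3 (0.0385), by library size (0.0129) and by upper quartiles (0.0308). PDIA3, PDIA4 and PDIA6 had values from -0.25 to 0.01, with intervals that reached -0.57 and 0.33 at the widest. TXNDC5, at -0.72 in this comparison, was at 0.00142 without LG replicate 2 and passed at -0.95 without LG replicate 3 (FDR 0.0169).

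At high glucose (HGV against HG), ERO1LB and ERP44 were higher and PDIA3 was lower, so that 3 of 10 genes were called, against 46.1% of 16188 genes (25.8% higher and 20.2% lower). Groups did not overlap for these 3, against 54.6% of all genes, and the median of the 10 was 0.01 (all genes 0.02). ERO1LB rose from 8.88, 5.53 and 7.0 CPM to 16.96, 16.0 and 17.5 CPM (1.24, SE 0.17, FDR 6.07e-05). That change, 2.36-fold, left HGV below the LG libraries, which began at 18.0 CPM. ERP44 rose from 64.2, 55.4 and 61.3 CPM to 84.8, 91.2 and 80.7 CPM (0.50, SE 0.10, FDR 0.00156).

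PDIA3 went from 523, 474 and 543 CPM to 424, 458 and 346 CPM (-0.33, FDR 0.0423), and the call was lost in 8 of 15 alternatives, among them the removal of any single library except HGV replicate 2 (FDR 0.0515 to 0.162). For PDIA4 and PDIA6, the log2 fold changes were -0.08 (interval -0.37 to 0.20) and 0.01 (interval -0.20 to 0.23). P4HB was at 0.00 (interval -0.25 to 0.25). ERO1L had 118, 104 and 106 CPM in HG and 132, 111 and 126 CPM in HGV, which overlapped (0.17, FDR 0.219). TXNDC5 had a wide interval, from -1.67 to 0.07 (FDR 0.122), and passed in 3 of 15 alternatives, among them without HG replicate 1 (0.00753) or HGV replicate 3 (0.0496). The oxidase ratio was 2.14-fold lower in HGV than in HG (exact permutation p = 0.1, the smallest possible, adjusted 0.133).

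Whether the change with VPA differed between glucose levels was tested as an interaction over the 12 libraries. None of the 10 genes passed (0 called, with 3 at an unadjusted p under 0.05), and 0.0427% of 16389 genes did (edgeR quasi-likelihood). The likelihood ratio test of edgeR and the Wald test of DESeq2 also called 0 of the 10. TXNDC11 had the lowest FDR, 0.187, for a difference of 0.48 (95% interval 0.17 to 0.78) between 0.07 at high glucose and -0.40 at low glucose. For ERO1LB the difference was 0.58 (interval 0.06 to 1.09, FDR 0.378) and for P4HB it was 0.39 (interval 0.01 to 0.77, FDR 0.430). For PDIA6 the interval ran from -0.36 to 0.41, and for TXNDC5 from -1.30 to 1.15. On simulated data the interaction fit called 80 of 197 changed genes (40.6%), so a gene that was not called may still differ.

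**Figure D4:**
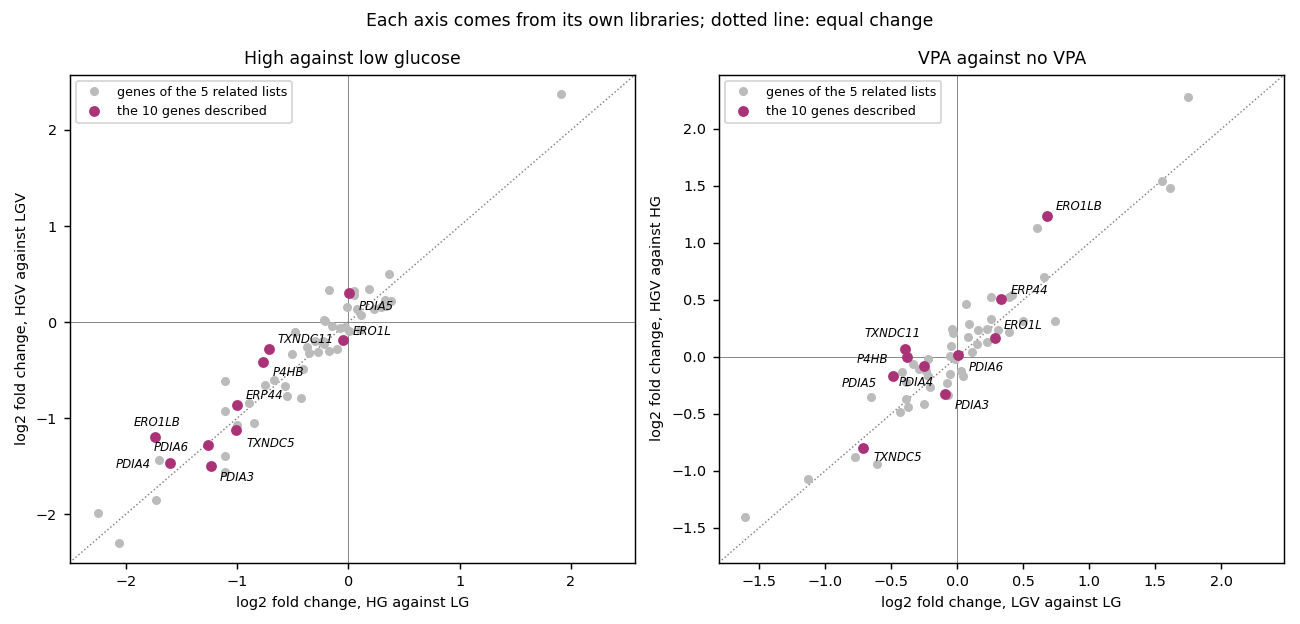
Left, log2 fold change with glucose without VPA (x axis) and with VPA (y axis), which come from different libraries, and right, log2 fold change with VPA at low glucose (x axis) and at high glucose (y axis), where purple points are the 10 genes, grey points the genes of 5 related lists and the dotted line marks equal change. ERO1LB stands at 0.68 and 1.24 on the right, and TXNDC5 at -0.72 and -0.80, of which neither passed the test.

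Levels of different genes were compared per kb of merged exon in GENCODE v44, while the study counted reads with an Ensembl annotation. The order therefore depends on these lengths, which were 11132 bases for P4HB, 11774 for PDIA3 and 3298 for PDIA4. Before division by length, P4HB had a mean of 2219 CPM in LG and PDIA4 2110 CPM. In LG the order was PDIA4 (640 ± 95.5 CPM per kb, SD, n = 3), PDIA6 (325 ± 53.3), P4HB (199 ± 26.4), PDIA3 (104 ± 22.8), TXNDC11 (41.2 ± 3.72), PDIA5 (17.7 ± 0.836), ERO1L (15.2 ± 2.25), ERP44 (8.63 ± 1.59), TXNDC5 (2.38 ± 1.62) and ERO1LB (1.57 ± 0.347). TXNDC5 and ERO1LB overlapped there, and neighbours above them did not. HG kept that order, but PDIA4, at 207 ± 9.22, was much closer to PDIA6 (133 ± 4.08) and P4HB (115 ± 7.83). In HG, TXNDC5 and ERO1LB again were the pair that overlapped, at 1.16 ± 0.611 and 0.465 ± 0.109.

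Under VPA, ERO1L stood above PDIA5 in LGV (18.4 ± 0.720 against 12.5 ± 1.25) and overlapped it in HGV (16.3 ± 1.43 against 15.6 ± 1.79). PDIA5 overlapped ERP44 in LGV, and PDIA6 overlapped P4HB in HGV. ERO1LB ranked above TXNDC5 in both VPA groups, at 2.48 ± 0.343 against 1.45 ± 0.412 in LGV and 1.10 ± 0.0485 against 0.670 ± 0.314 in HGV, with no overlap. Of the 4361 merged exon bases of TXNDC5, 1698 are free of other genes. How reads of the shared bases were counted was not tested, so the level per kb and rank of TXNDC5 are uncertain in every group. With the length of the longest annotated transcript instead, PDIA3 stood above P4HB in LG (333 and 271 CPM per kb) and in LGV (310 and 206), ERP44 stood above PDIA5 in LGV (25.7 and 22.8), and PDIA5 stood above ERO1L in HGV (28.4 and 23.9). The isomerase genes also shifted against each other within a library. Reads of PDIA4 for each read of P4HB were 0.940, 0.988 and 0.921 in LG, 0.555, 0.515 and 0.526 in HG, 1.04, 1.07 and 0.999 in LGV and 0.509, 0.538 and 0.451 in HGV. The ratio was lower at high glucose in each pair of groups, 1.79-fold without VPA and 2.09-fold with it (exact permutation p = 0.1 in each, the smallest possible, adjusted 0.133). Summed over the 8 isomerases and relatives, reads per ERO1 read were 52.9 ± 10.4 in LG, 28.1 ± 2.83 in HG, 35.4 ± 4.03 in LGV and 22.7 ± 4.23 in HGV.

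Genes around this machinery were read from 5 lists, whose counts stand against calls in 24.7% of all genes in HG against LG (12.7% lower) and 40.7% in HGV against LGV (19.5% lower). Of 14 other ER thioredoxin-fold genes, 6 were lower and 1 was higher in HG against LG, with a median log2 fold change of -0.20 (all genes 0.01). PDIA2, an isomerase known from the pancreas, changed by -1.73 (FDR 0.000152), AGR2, a mucin-folding isomerase, by -1.11 (FDR 0.00290), and DNAJC10, an ER reductase, by -0.75 (FDR 0.00301). ERP27, which binds unfolded chains but lacks the active cysteines, changed by 1.91 (FDR 0.0222), from 0.187 ± 0.261 to 0.761 ± 0.257 CPM. That is close to the 0.0713 to 0.112 CPM that 3 reads stood for, its groups overlapped, and the call was lost without HG replicate 1 (FDR 0.0937), HG replicate 3 (0.0837), LG replicate 1 (0.0988) or LG replicate 2 (0.0986) and by the Wald test (0.238). Without LG replicate 3 its log2 fold change was 4.01. In HGV against LGV, 6 of the 14 were again lower, with PDIA2 at -1.85, AGR2 at -1.56 and TMX2, a membrane-bound relative, at -0.66, and 1 was higher, ERP27 at 2.38 (median -0.18, all genes 0.01).

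Partner subunits and client-binding partners held the lowest values of the 5 lists. CALR and CANX, the lectin chaperones that hand glycoproteins to PDIA3, changed by -2.25 and -1.11, and HSPA5, the chaperone BiP, by -2.06 (FDR 1.66e-08, 1.15e-05 and 1.26e-08). Of 9 such genes, 3 were lower in HG and 1 was higher (median -0.24), the latter being MTTP, the partner of P4HB in lipid transfer, at 0.33 (FDR 0.0490). That call was lost in 8 of 15 alternatives, including the removal of LG replicate 1 (FDR 0.127), LG replicate 2 (0.0820) or any HG replicate (0.0798 to 0.123). In HGV against LGV the same list had 3 lower, HSPA5 at -2.30, CALR at -1.99 and CANX at -1.39, and 1 higher, SUMF1, which activates sulfatases, at 0.50 (median -0.20).

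Of 7 UPR sensors and factors, 5 were lower and 0 higher in HG, with a median of -0.85. The other 2 were not called and went opposite ways, XBP1 at 0.29 (FDR 0.0870) and ATF6B at -0.37 (FDR 0.0567). By upper quartiles, by library size and without LG replicate 3, 1 gene of this list was called higher in HG. In HGV against LGV, XBP1 was at 0.16 (FDR 0.408) and ATF6B at -0.26 (FDR 0.0916). DDIT3, the stress factor CHOP, was at -1.70 (FDR 4.04e-05), and the sensors EIF2AK3 (PERK), ERN1 (IRE1) and ATF6 were at -1.0, -0.89 and -0.85 (FDR 7.31e-05, 0.000281 and 0.000162). HGV against LGV also had 5 lower, with DDIT3 at -1.44, EIF2AK3 at -1.07, ATF6 at -1.05 and ERN1 at -0.84, and its median was also -0.84. Genes that supply disulfides or remove peroxide by other routes gave 2 lower of 8 in HG, near the share of all genes called (median -0.11). These were PRDX4, the ER peroxiredoxin, at -0.51 (FDR 0.00776) and GFER, which oxidises proteins in mitochondria, at -0.42 (FDR 0.0360), a call lost without any HG replicate or LG replicates 1 or 2 (FDR 0.0915 to 0.195). In HGV against LGV, GFER alone passed, at -0.79 (median -0.05). Of 11 genes of the cytosolic and mitochondrial thioredoxin system, 4 were lower in HG and 3 in HGV against LGV, and 0 were higher (medians -0.23 and -0.20). GLRX and GLRX2, glutaredoxins, were at -1.11 and -1.10 in HG, TXNRD1, thioredoxin reductase, at -0.55 and NXN at -0.48, with NXN lost without HG replicates 1 or 3 or LG replicate 1 (FDR 0.0532 to 0.0724). GLRX2 at -0.93, TXNRD1 at -0.77 and GLRX at -0.61 were the 3 in HGV against LGV.

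**Figure D5:**
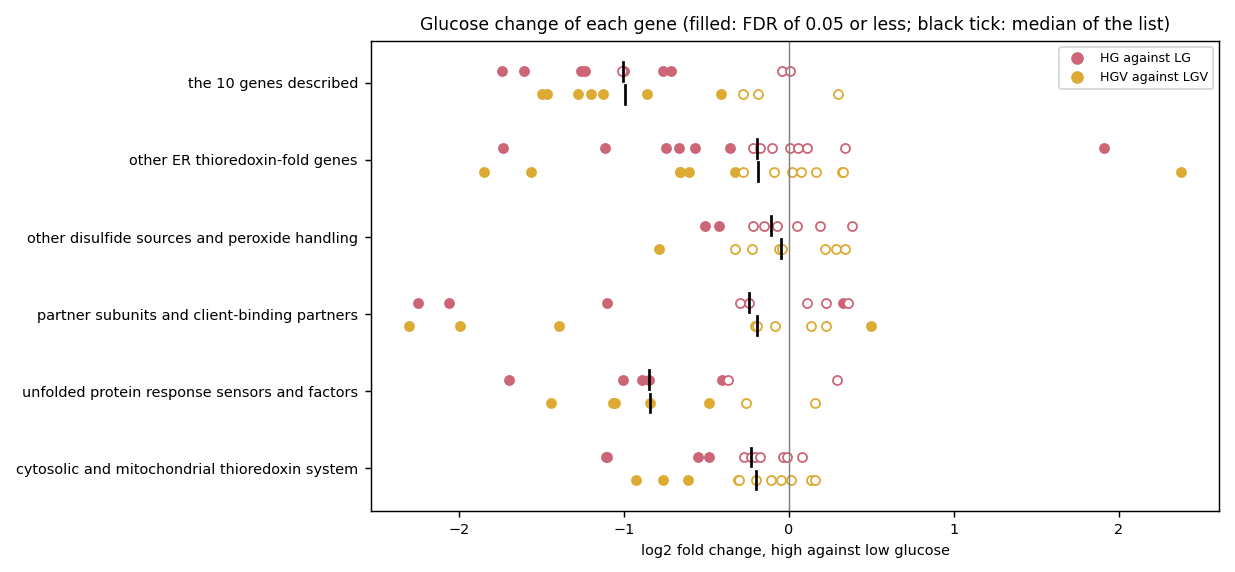
Log2 fold change with glucose of the 10 genes and of the genes in the 5 related lists, for HG against LG and HGV against LGV. Filled points had an FDR of 0.05 or less, and black ticks mark the median of each list, which is -1.01 and -0.99 for the 10 genes and -0.85 and -0.84 for the UPR sensors and factors.

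With VPA, calls in these lists went both ways, and over all genes 41.6% were called at low glucose and 46.1% at high glucose. Among the other ER thioredoxin-fold genes, 3 were higher and 3 lower of 13 at low glucose, and 4 were higher and 3 lower of 14 at high glucose, near those shares (medians 0.03 and 0.00). SELM, an ER selenoprotein, rose by 1.74 and 2.28 on the log2 scale and TXNDC16 by 1.55 and 1.54, while TXNDC15 was at -1.13 and -1.08. AGR2 rose by 0.74 at low glucose and ERP27 by 0.93 at high glucose. Among disulfide sources and peroxide enzymes, 3 were higher and 2 lower of 8 at low glucose and 3 were higher and 1 lower at high glucose (medians 0.00 and 0.11). QSOX1, a secreted sulfhydryl oxidase, was at 0.66 and 0.70 and GPX8, an ER peroxidase seen at 0.381 CPM in LG and 1.15 CPM in LGV, at 1.61 and 1.48. VKORC1, which reduces vitamin K epoxide, was at 0.39 and 0.53 and GFER at -0.61 and -0.94. Of the partners, P4HA2, the catalytic subunit that pairs with P4HB, rose by 0.41 and 0.54, and 1 of 9 was lower at low glucose and 2 at high glucose (medians -0.04 and -0.17). The lower ones were SUMF1 at low glucose (-0.39), and TAPBP, which holds PDIA3 in the peptide-loading complex, and CANX at high glucose (-0.42 and -0.33). Of the UPR genes, 2 were lower and 1 higher at each glucose level (medians -0.04 and 0.09), with XBP1, the factor spliced by IRE1, at -0.78 and -0.88 and ATF4 at -0.43 and -0.49. ATF6 was at 0.39 at low glucose and ERN1 at 0.33 at high glucose. In the thioredoxin system, 2 were higher and 2 lower at low glucose and 3 and 2 at high glucose (medians -0.01 and 0.21), with TXNRD2, the mitochondrial reductase, at -1.61 and -1.41 and GLRX at 0.60 and 1.13. TXN2 was at -0.39 and -0.37, TXNRD1 at 0.50 at low glucose and NXN at 0.47 at high glucose. The interaction called 0 genes in each list, by edgeR's quasi-likelihood test.

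Several of these VPA calls depended on single libraries or the scaling. At low glucose, AGR2 was lost without LG replicate 1 (FDR 0.0508) or LGV replicate 3 (0.0755), and ATF6 without LG replicate 1 (0.0552), LG replicate 3 (0.0938), LGV replicate 2 (0.114) or LGV replicate 3 (0.0672). ATF4 was lost in 6 of 15 alternatives (FDR up to 0.170), SUMF1 in 5 (up to 0.205), TXN2 in 4 (up to 0.0874), VKORC1 in 2 (up to 0.0829) and P4HA2 in 1 (0.0759). At high glucose, ERP27 was lost without HG replicate 2 (0.0866) or HGV replicate 3 (0.0764) and in the fit of all 12 libraries (0.1001). ERN1 was lost in 8 of 15 (up to 0.200, without HGV replicate 1, where its log2 fold change was 0.19), and CANX and TXN2 in 6 each (up to 0.142 and 0.154).

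Genes with the most similar profiles were ranked by the root mean square difference of mean-centred log2 CPM over the 12 libraries, among 16318 gene symbols outside these lists. For P4HB the closest were SRPRB (0.0817), LMAN2 (0.0829) and SSR2 (0.0838), which code for proteins of the ER membrane or of transport out of it, against a median of 0.522 over all genes. For PDIA4 they were VIMP (0.121), HERPUD1 (0.144) and SLC35B1 (0.174), with PDIA3 the closest of the other 9 genes (0.168). For ERO1LB they were CYP1A1 (0.211), SEL1L (0.250) and UAP1L1 (0.270), and for ERO1L they were NRD1 (0.0754), CUL2 (0.0756) and PTBP3 (0.0831). The closest to TXNDC5, AC009948.7 at 0.495, CABLES1 at 0.521 and FBXW12 at 0.533, were much less alike. The 12 libraries of such a profile fall into 4 groups and share their depth and scaling, so these distances describe the libraries only.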

How the data were processed

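RNA was enriched for poly(A), made into libraries with a directional kit and sequenced from one end, as the labels and the study describe. Per the labels, the authors' tools were bcl2fastq 2.17.1.14, STAR and featureCounts on GRCh37. The authors deposited raw counts of reads per Ensembl gene, without normalization, for 16389 genes with a mean of at least 10 reads per sample, which was checked on the values. The strand setting of the counting is not given in the sources used here, so reads of overlapping antisense genes may not be separated.

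TMM factors were computed and glmQLFit and glmQLFTest run in edgeR 4.0.16 (R 4.3.3), keeping genes whose mean count over the libraries compared reached 10, with Benjamini-Hochberg adjustment (FDR). A gene was called at an FDR of 0.05 or less. Each comparison used its own 6 libraries and the interaction all 12. Intervals are 95% intervals from the fitted standard error. Reads per library ranged from 29798442 to 45572694, and the 10 genes had from 53 to 91326 reads. Libraries of a group differed by far more than counting error, so the precision of a value comes mainly from the spread between libraries. All 10 passed the filter in each comparison. For pairs of libraries within a group, chi-square per degree of freedom was 10.2 to 64.3, so none was counted as a duplicate. Positions and exon lengths came from GENCODE v44 mapped to GRCh37, and promoter windows from RefSeq. Exact permutation tests and summaries used Python 3.11.15, numpy 2.4.6, pandas 2.3.3 and scipy 1.17.1, and plots matplotlib 3.10.9.

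The 10 genes, the 5 lists (other ER thioredoxin-fold genes, other disulfide sources and peroxide handling, partner subunits and client-binding partners, UPR sensors and factors, and the cytosolic and mitochondrial thioredoxin system) and the markers were chosen with earlier results of these data known. All 10 genes are named, from each list the up to 4 called genes per comparison with the largest absolute change are named, and 3 most similar genes are named for each of P4HB, PDIA4, TXNDC5, ERO1L and ERO1LB. XBP1 and ATF6B are also given for the glucose comparisons, where they were not called. PDILT, AGR3 and P4HA3 were on the lists and not in the table. Other settings tried were scaling by DESeq2's size factors, by upper quartiles or by library size, edgeR's likelihood ratio test and DESeq2's Wald test (version 1.42.0), keeping every gene or only those at 1 CPM in 3 libraries, a block for replicate number, 1 fit of all 12 libraries, a stricter FDR of 0.01, fits without each single replicate in turn and, for levels per kb, the longest transcript. The edgeR fit was tested on simulated data with a biological coefficient of variation of 0.15. For HG against LG it called 175 of 198 changed genes (88.4%), and 5.41% of its calls were false. For the interaction it called 80 of 197 (40.6%), with 3.61% of calls false. The median absolute log2 fold change fitted to the changed genes was 1.01 and 0.965.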

Additional observations from a re-analysis of the deposited data

How the results depend on the processing

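The 7 calls of HG against LG were made in each of 15 alternatives, and so were those of PDIA3, PDIA4, PDIA6, TXNDC5, ERP44 and ERO1LB in HGV against LGV. The number of the 10 genes called ranged from 7 to 8 in HG against LG and from 6 to 8 in HGV against LGV when a single library was left out, from 2 to 3 in HGV against HG, and was 0 for the interaction. In LGV against LG it ranged from 2 (without LG replicate 1 or LGV replicate 3) to 6 (without LG replicate 3), and it was 2 at an FDR of 0.01. Over named genes of the lists, 1016 recomputed values kept their call, 86 lost it and 0 changed sign.

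Scaling by library size moved the median log2 fold change of all genes to 0.106 in HG against LG, 0.156 in LGV against LG and 0.146 in HGV against HG. Upper quartile scaling moved it to 0.102 in HG against LG and 0.101 in HGV against LGV. Genes called higher and lower were then 2172 and 1297 (library size) or 2458 and 1366 (upper quartile) in HG against LG, in place of 1854 and 1959. They were 4500 and 1956 in LGV against LG by library size, in place of 3461 and 3177, and 5182 and 2424 in HGV against HG, in place of 4184 and 3272. In HGV against LGV they were 4126 and 2375 by upper quartiles, in place of 3444 and 3160. The interaction called 7 of all genes, 202 by the likelihood ratio test, 162 by the Wald test, 1 by library size scaling and 13 with the replicate block. The cause was not tested.

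Sign changes were seen in values that did not pass the test. By upper quartiles and by library size, ERO1L was at 0.0472 and 0.0526 in HG against LG and P4HB at 0.0558 and 0.116 in HGV against HG. By library size PDIA3 was at 0.0701 in LGV against LG and PDIA4 at 0.0335 in HGV against HG. With the 1 CPM filter PDIA5 was at -0.000637 in HG against LG and P4HB at 0.00677 in HGV against HG, and in the fit of all 12 libraries PDIA6 was at -0.00290 in LGV against LG. PDIA6 was at -0.0216 in HGV against HG by size factors and by the Wald test, and its interaction was at -0.00674 by both, -0.00551 by upper quartiles, -0.0307 by library size and -0.00883 with the 1 CPM filter. Leaving out single libraries gave -0.0352 to 0.0929 for PDIA5 and -0.141 to 0.0423 for ERO1L in HG against LG. In LGV against LG it gave -0.211 to 0.0851 for PDIA3, -0.105 to 0.111 for PDIA6 and -0.986 to 0.00142 for TXNDC5. In HGV against HG it gave -0.0803 to 0.0547 for P4HB, -0.224 to 0.0370 for PDIA4 and -0.0173 to 0.0569 for PDIA6. For the interaction it gave -0.00304 to 0.303 for PDIA4, -0.114 to 0.148 for PDIA6 and -0.833 to 0.233 for TXNDC5.

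Deviations of same-numbered libraries correlated from -0.188 to 0.256 over all genes. With 3 libraries per group these values cannot decide whether replicate numbers pair the libraries. With the replicate number as a block, 3351 of all 15452 genes tested were called in HG against LG and 7308 of 16208 in HGV against LGV. In LGV against LG 6971 of 15944 were called, in HGV against HG 8229 of 16188 and in the interaction 13 of 16389. Of the 10 genes, 8, 8, 6, 4 and 0 were called, in that order. The genes gained were TXNDC5 in HG against LG (FDR 0.000527), LGV against LG (0.0361) and HGV against HG (0.00154), PDIA5 in HGV against LGV (0.0433) and ERP44 in LGV against LG (0.0275). Read numbers were lowest for TXNDC5, at 53 to 743 per library, and the coefficient of variation of its LG level was 67.9%.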
